A study of Mus musculus with 31 samples.

Results

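Wild-type (WT) fetal liver hematopoietic stem cells (FL HSCs) were compared with WT mouse embryonic fibroblasts (MEFs) by setting the rank of each Affymetrix probe set within an FL HSC sample against its rank within a MEF sample. Of 23 samples in the series, on 31 arrays, 11 are WT, and the comparison used 10 of them on 14 arrays. The 6 FL HSC samples were 2 Crebbp+/+ and 2 Ep300+/+ samples from C57BL/6 embryos, each hybridized as 2 technical arrays that were averaged, and 2 Cdkn1a+/+ samples from B6/129Sv embryos. Each was a pool of 15 fetal livers at 14.5 dpc, from which Sca-1+ Lin- AA4.1+ c-Kit++ cells had been sorted. The 4 MEF samples were Crebbp+/+ C57BL/6 cultures from disaggregated bodies of 14.5 dpc embryos, 1 embryo from each of 4 litters. All donors were untreated and carried no targeted allele of the gene studied in their experiment. The third Cdkn1a+/+ FL HSC sample was left out because it held transcripts of other fetal liver cells. There *Alb*, serum albumin, stood at the 99.2nd percentile against at most 77.8 in the other FL HSC samples, and *Slc4a1*, the red cell anion exchanger, at 89.4 against at most 39.9.

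HSCs self-renew and give rise to all blood lineages, and in midgestation they expand in the fetal liver. They circulate and lodge in niches, and carry the receptors, adaptors and actin regulators shared by leukocytes. Fibroblasts adhere through integrins and focal adhesions, build contractile fibers and secrete the collagens and growth factors of connective tissue, among them ligands on which HSCs depend. CREBBP and EP300 are related histone acetyltransferases and coactivators, and CDKN1A (p21) is an inhibitor of cyclin-dependent kinases.

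The deposited log2 values had been normalized separately for the MEFs and for each of the 3 FL HSC experiments, and their distributions differed. An intensity of 100 lay at percentiles 56.8 to 75.2 of the FL HSC samples and at 67.7 to 67.8 of the MEF samples. Values were therefore converted to percentile ranks from 0 to 100 over 45037 probe sets in each sample. A rank shows the place of a transcript within its own sample and not its amount. Ranks well under the percentile of intensity 100 are background and have no order, so the size of a difference involving such a rank depends partly on the background of the probe set. Near the top of the scale a large change in intensity moves a rank little. Only the FL HSC RNA was amplified according to the study's methods, although the sample labels give the amplification for all samples, and only the MEFs were cultured. Cell type, amplification, culture and the separate normalization cannot be told apart in any difference given here.

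Pearson correlations of ranks were 0.937 to 0.994 between FL HSC samples, 0.993 to 0.998 between MEF samples and 0.679 to 0.709 between the cell types. The median SD over tested probe sets was 2.32 percentile points among the 6 FL HSC samples and 0.872 among the 4 MEF samples. The 5′ probe set for *Actb*, among the array's controls, ranked from 91.1 to 99.0 in FL HSCs and at 99.96 or above in MEFs, while the 3′ probe set ranked from 98.6 to 99.8 in FL HSCs and at 99.98 in each MEF sample. The 3′ probe set for *Tfrc* ranked from 62.9 to 82.1 in FL HSCs and from 63.6 to 71.0 in MEFs. Its 5′ probe set ranked from 37.0 to 47.8 in FL HSCs and from 52.7 to 60.4 in MEFs. For *Tfrc* the cell types thus overlapped at the 3′ end and were apart at the 5′ end. Both *Pcx* probe sets ranked lower in FL HSCs, and both *Gapdh* probe sets were above percentile 95 in all samples. The part of RNA quality in the differences was not tested.

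*Ptprc* (CD45), the leukocyte surface phosphatase, ranked between 94.1 and 95.8 in FL HSCs with a median of 95.2. In MEFs it stood at 8.13, 8.29, 19.3 and 8.34. *Cd34*, a sialomucin of progenitor and endothelial cells, ranked from 98.0 to 98.7 with a median of 98.3 in FL HSCs, against 61.8, 58.0, 60.0 and 57.9 in MEFs. Neither gene showed overlap between the cell types. An isoform of CD45, B220, was among the lineage antigens by which cells were excluded, so *Ptprc* is not independent of the sort. *Col1a1*, which encodes the main chain of type I collagen, was at 99.99 in each of the 4 MEF samples and from 34.5 to 41.9, median 37.0, in FL HSCs. *Col3a1* (type III collagen) was at 99.94, 99.91, 99.94 and 99.89 in MEFs and from 31.0 to 46.6, median 32.3, in FL HSCs. Both collagens were thus at background in the sorted cells and at the very top of the fibroblast samples.

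*Kit*, the receptor for stem cell factor, was a gate of the sort and is no finding. Its probe sets differed in brightness. One ranked from 89.2 to 94.8 in FL HSCs and at 33.4, 25.7, 26.1 and 25.3 in MEFs, and the other from 61.2 to 72.9 in FL HSCs and at 49.9, 50.6, 50.2 and 50.01 in MEFs. The latter did not reach the level needed for testing and represents *Kit* in the counts below, because the probe set with the highest average rank stands for a gene. *Cd93*, the antigen recognized by AA4.1, was also gated on.

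Each probe set with a mean rank of at least percentile 70 in either cell type was tested with limma, and 17361 were. A probe set was called when its Benjamini-Hochberg adjusted p was under 0.05, its mean rank differed by at least 10 percentile points and the 6 FL HSC and 4 MEF samples did not overlap. By this rule 4632 probe sets were higher in FL HSCs, 26.7% of those tested, and 4594 were higher in MEFs, 26.5%. Complete separation of the samples at any size of difference was more common still, with 7130 probe sets higher in all FL HSC samples and 6731 higher in all MEF samples. Another 6487 probe sets lay at or above percentile 75 in all 10 samples. An extreme pattern, at or above percentile 75 in every FL HSC sample and below percentile 50 in every MEF sample, was shown by 492 probe sets, and the converse by 783. Counted as 1 probe set a gene, 2276 of 9220 tested genes were higher in FL HSCs (24.7%) and 1986 were higher in MEFs (21.5%). These gene-level percentages are the background for each list below. A gene low in one cell type could be tested only through its rank in the other, so the counts of the lists describe tested genes and were not themselves tested.

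**Figure D1:**
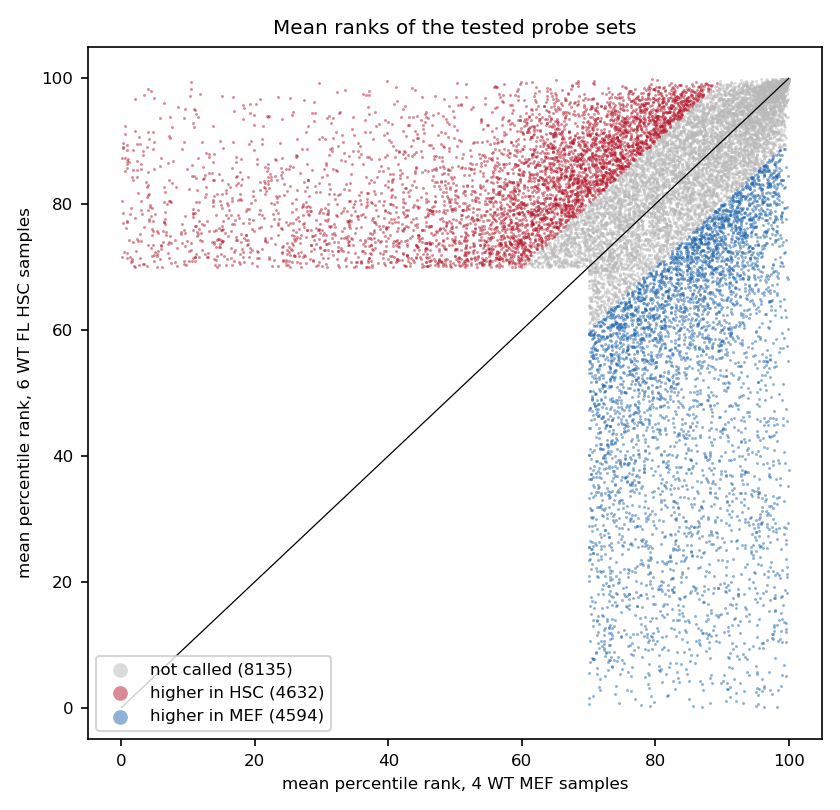
Mean percentile rank in 6 WT FL HSC samples (vertical axis) against that in 4 WT MEF samples (horizontal axis) for 17361 tested probe sets, 1 point each, with the 4632 called higher in FL HSCs in red, the 4594 called higher in MEFs in blue and the others in gray. The empty lower left corner is the filter at percentile 70, and both off-diagonal arms reach to the bottom of the scale.

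Each FL HSC experiment was also compared on its own. Against the same MEFs, the Crebbp+/+ samples alone gave 4916 probe sets higher in FL HSCs and 4772 higher in MEFs, the Ep300+/+ samples 4937 and 4689, and the Cdkn1a+/+ samples 4549 and 4367. Of these, 3604 were higher in FL HSCs and 3918 higher in MEFs in all 3 comparisons, which share their MEF samples, and 3 probe sets were called in opposite directions by different experiments. With the experiment as a random block, for which the consensus correlation within an experiment was 0.679, the counts were 4591 and 4485. The SEs and adjusted p given in the text come from the fit without this block. That fit takes the samples of 1 experiment as independent, so these values may overstate the precision.

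Among the 12 genes with the widest gap in favor of FL HSCs, no FL HSC sample ranked below 85.1 and no MEF sample above 10.6. *Ptpn18*, a protein tyrosine phosphatase, ranked from 95.4 to 97.5 in FL HSCs and at 1.95, 1.98, 2.06 and 1.98 in MEFs, a difference of 94.7 ± 0.914 (SE; limma, adjusted p = 9.7e-14). *Mpo*, the peroxidase of neutrophil granules, ranked from 99.2 to 99.6 against 10.2, 10.6, 10.5 and 10.3. *Lyl1* and *Nfe2*, transcription factors of hematopoietic progenitors and of erythroid cells and megakaryocytes, differed by 84.7 ± 1.23 and 86.1 ± 1.38 points (SE). The others were *Car2* (carbonic anhydrase), *Pik3cg* (the gamma isoform of PI3 kinase), *Cd37* (a leukocyte tetraspanin), *Rcsd1*, *Hook1*, *Pigt*, and *Arhgap30* and *Arhgap9*, both GTPase-activating proteins. *Pigt* belongs to the enzyme that attaches GPI anchors in most cells, and its call came from 1 of 3 probe sets, since the other pair did not reach the level for testing.

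In the other direction the 12 widest gaps left no MEF sample below 89.4 and no FL HSC sample above 12.3. *Hspb1*, a small heat shock protein, ranked from 0.111 to 0.289 in FL HSCs and at 95.9, 96.7, 95.8 and 97.0 in MEFs (difference -96.2 ± 1.31, SE, adjusted p = 4.05e-13). *Col6a2* and *Col6a3*, chains of microfibrillar collagen VI, differed by -95.5 ± 1.23 and -93.8 ± 2.34 points. *Fbln2* and *Mfap4*, matrix proteins of elastic and microfibrillar networks, and *Cthrc1* and *Ccn5*, secreted regulators of matrix, were of the same kind. *Tgfb3* and *Bmp4* encode growth factors of the TGF-beta superfamily. *Tgfb1i1* (Hic-5) encodes a focal adhesion adaptor, ranked from 0.427 to 0.617 in FL HSCs and at 94.8, 95.9, 95.5 and 95.4 in MEFs. *Mrgprf*, an orphan receptor, and *Rtl3*, a gene derived from a retrotransposon, completed the 12.

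**Figure D2:**
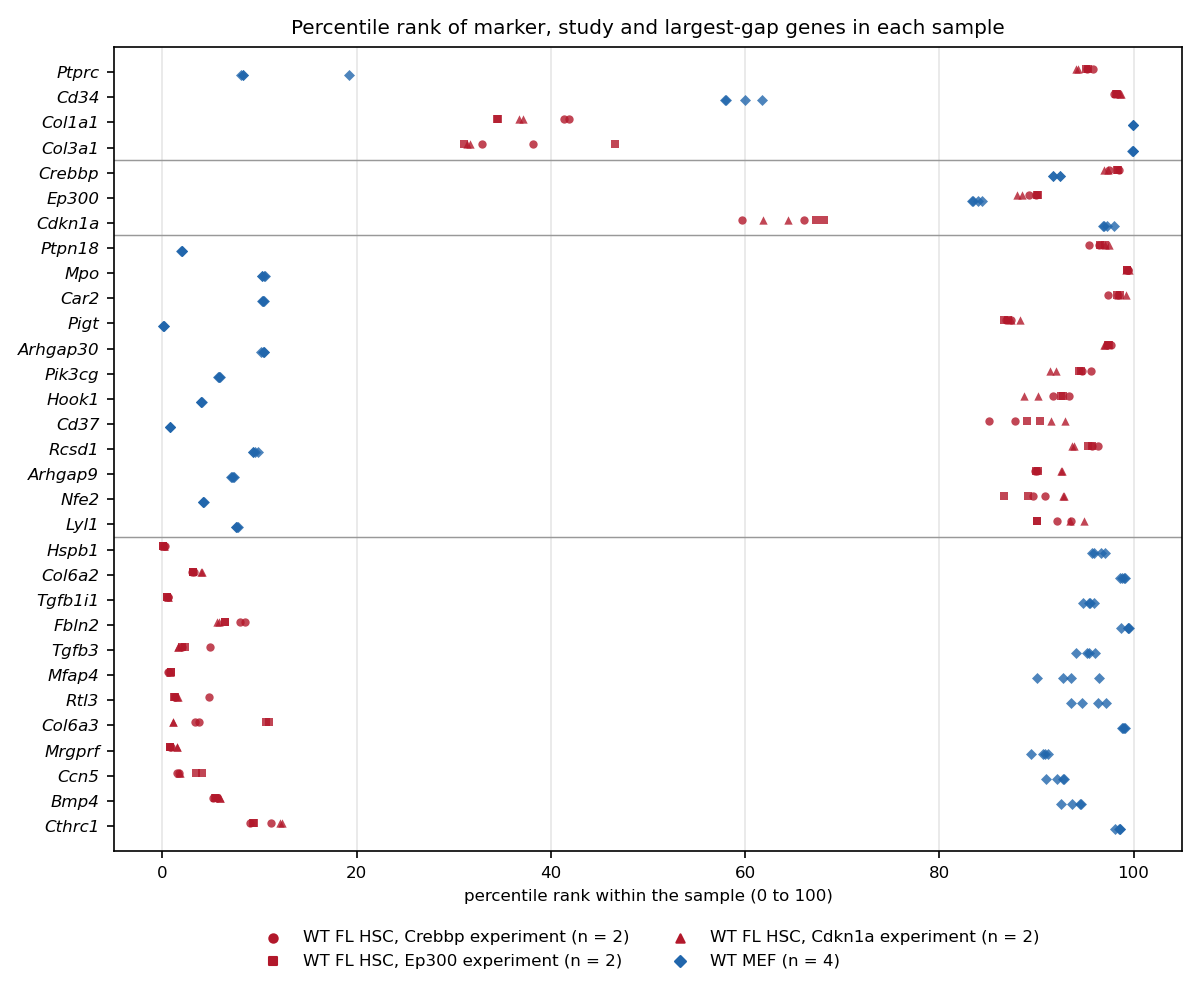
Percentile rank of 4 marker genes, the 3 genes mutated elsewhere in the series and the 12 genes with the widest gap in each direction (rows) in each sample, with red symbols for 6 WT FL HSC samples by experiment and blue diamonds for 4 WT MEF samples. The groups are apart for every gene shown, and *Crebbp* and *Ep300* are the closest.

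Windows of 250 bases before the annotated start (RefSeq, GRCm38.p6) were available for 1844 of the 2276 genes higher in FL HSCs and 1581 of the 1986 higher in MEFs. The letters GAGGAAGT, which the ETS factor PU.1 can bind, occurred on either strand in 3.31% of windows of genes higher in FL HSCs, 0.949% of those higher in MEFs and 2.44% of 27025 windows of all genes. Among the widest gaps in favor of FL HSCs, of which *Car2*, *Rcsd1*, *Arhgap9* and *Nfe2* had no window, they were found for *Mpo* and *Cd37*, shown here with *Kit* and *Col3a1* as marker genes of either side. Capitals mark matches on either strand to these letters or to those of the other motifs given after the sequences.
Mpo (chr11:87793534-87793783, + strand): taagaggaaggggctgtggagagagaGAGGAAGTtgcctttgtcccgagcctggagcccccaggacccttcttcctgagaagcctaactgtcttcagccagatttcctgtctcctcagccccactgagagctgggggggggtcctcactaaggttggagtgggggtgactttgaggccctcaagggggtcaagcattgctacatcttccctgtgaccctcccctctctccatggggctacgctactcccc
Cd37 (chr7:45238840-45239089, - strand): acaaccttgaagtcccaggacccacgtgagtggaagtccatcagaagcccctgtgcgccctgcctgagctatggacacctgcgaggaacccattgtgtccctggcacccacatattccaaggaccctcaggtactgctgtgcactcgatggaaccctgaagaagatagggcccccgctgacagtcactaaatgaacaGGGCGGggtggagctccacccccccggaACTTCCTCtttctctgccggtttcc
Kit (chr5:75574737-75574986, + strand): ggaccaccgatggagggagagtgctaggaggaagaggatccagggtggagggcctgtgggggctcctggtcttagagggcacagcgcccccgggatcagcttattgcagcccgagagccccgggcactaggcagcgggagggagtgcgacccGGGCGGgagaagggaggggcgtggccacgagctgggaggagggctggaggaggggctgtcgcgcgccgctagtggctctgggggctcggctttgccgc
Col3a1 (chr1:45311288-45311537, + strand): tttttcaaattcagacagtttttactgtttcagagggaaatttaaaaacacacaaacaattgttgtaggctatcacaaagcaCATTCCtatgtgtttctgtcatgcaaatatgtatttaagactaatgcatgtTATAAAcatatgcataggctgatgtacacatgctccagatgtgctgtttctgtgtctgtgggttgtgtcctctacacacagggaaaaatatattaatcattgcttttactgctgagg

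As a ratio between the directions, the other letters searched differed less, although GGGCGG differed by more percentage points. AGATAA, which factors of the GATA family can bind, was in 6.4% of windows of genes higher in FL HSCs and 4.74% of those higher in MEFs, against 10.3% of all windows. TGTGGT (RUNX) was in 10.8% and 8.6%, against 14.2%, and GGAATG (TEAD) in 9.54% and 11.8%, against 12.6%. TGANTCA (AP-1) was in 3.85% and 3.92%, against 6.87%. The CArG box of SRF was in 1.36% and 1.64%, against 1.4%, TATAAA in 6.62% and 7.72%, against 13%, and CCAAT in 36.3% and 34%, against 34.5%. GGGCGG (the GC box) was in 58.4% and 66%, against 32.9%, and the median G and C content was 60%, 61.6% and 52%. These are matches of letters, which follow base composition, and no test was made of them.

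Of 24 listed surface proteins of HSCs and their progeny, 22 had a probe set naming that gene alone, 19 were tested and 19 were higher in FL HSCs, among them *Cd93*, whose call the sort fixed. The median difference over the 22 genes was 47.9 percentile points. *Cxcr4*, the chemokine receptor that holds HSCs in their niche, ranked from 97.0 to 98.6 in FL HSCs and at 31.8, 32.5, 32.6 and 32.6 in MEFs. *Flt3*, a cytokine receptor of multipotent progenitors, ranked from 90.7 to 95.5 and at 38.8, 39.0, 38.5 and 38.4. *Cd48*, present on progenitors, differed by 76.9 ± 1.13 points, whereas *Slamf1* (CD150), found on the most primitive HSCs, ranged from 48.4 to 78.5 in FL HSCs and was not tested. *Procr* (EPCR), an HSC marker that other cells also carry, showed the smallest called difference, with 81.8 to 91.6 in FL HSCs and 76.9, 73.0, 70.6 and 76.1 in MEFs (10.7 ± 1.95, SE, adjusted p = 0.000359).

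Of 29 hematopoietic transcription factors, 26 were tested, 22 were higher in FL HSCs and none in MEFs by their representative probe set, although by any probe set 2 genes had a call in MEFs. *Tal1*, which directs the onset of hematopoiesis, ranked from 84.2 to 90.1 in FL HSCs and from 3.24 to 3.34 in the 4 MEF samples. *Hhex* (97.0 to 97.6) and *Ikzf1* (96.0 to 97.3), homeobox and zinc finger factors of early blood cells, stood at or below 15.4 and 21.3 in MEFs. *Myb*, required for definitive hematopoiesis, differed by 50.2 ± 0.715 points, and *Hlf*, a factor enriched in HSCs, by 56.8 ± 1.3. *Spi1* (PU.1) was higher too, with 73.5 to 79.7 in FL HSCs and 41.0, 40.8, 40.5 and 41.0 in MEFs.

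Several regulators known for their role in HSCs were well represented in fibroblasts. *Hoxa9* ranked from 96.2 to 97.6 in FL HSCs and at 87.4, 79.8, 83.0 and 82.0 in MEFs, and was called by 13.97 ± 1.15 points. *Runx1* (91.3 to 94.6 against 87.1, 84.7, 84.4 and 83.2) and *Mecom* (96.3 to 98.1 against 90.1, 89.4, 88.6 and 89.7) did not overlap, but differed by less than 10 points and were not called. *Meis1*, the partner of HOXA9, pointed the other way, with 75.7 to 81.1 in FL HSCs and 89.0, 86.3, 87.3 and 84.9 in MEFs (-9.6 ± 1.32). *Sox4* was at percentile 98 or above in all samples by its brightest probe set. Others of its probe sets were called in both directions, among them 1 higher in MEFs (-75.05 ± 9.85) and 1 higher in FL HSCs (27.5 ± 1.6).

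Of 34 signalling and cytoskeletal proteins of blood cells, 28 were tested, 25 were higher in FL HSCs and 1 was higher in MEFs. *Rac2*, a leukocyte GTPase, ranked from 94.2 to 97.7 in FL HSCs and at 18.1, 17.9, 18.4 and 18.4 in MEFs. *Btk*, a kinase of antigen and cytokine receptors, differed by 64.5 ± 0.792 points, and *Was*, *Dock2*, *Lcp2* and *Nckap1l* were of similar size. The exception was *Unc93b1*, a transporter of Toll-like receptors, at 70.7, 70, 70.5 and 70.6 in MEFs and from 18.4 to 65.8 in FL HSCs. Its difference of -24.7 ± 9.63 points (adjusted p = 0.0325) went with a wide spread between the FL HSC experiments, with 18.4 and 19.1 in the Ep300+/+ samples and 50.7 to 65.8 in the other 4. With the third Cdkn1a+/+ sample, at 71.2, the cell types overlapped and the call was lost.

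All 32 genes on the array from a list of 33 collagens and matrix proteins were tested and higher in MEFs, with a median difference of -70.4 points. *Dcn* (decorin), a small proteoglycan, ranked from 3.88 to 8.76 in FL HSCs and at 96.3, 93.7, 96.9 and 94.0 in MEFs. *Thbs1*, an adhesive matrix glycoprotein, ranked from 12.5 to 14.8 and at 99.5, 99.6, 99.5 and 99.7. The smaller differences included genes of intermediate rank in the sorted cells. *Col4a2*, of basement membranes, ranked from 73.9 to 87.7 in FL HSCs, *Postn* from 71.9 to 78.3 and *Fn1* from 58.3 to 74.6, against at least 96.5, 99.5 and 99.6 in MEFs. *Fn1* was below the percentile of intensity 100 in the 4 Crebbp+/+ and Ep300+/+ samples and *Postn* in 2 of them. The spread of *Bgn* (biglycan) in FL HSCs, 5.35 to 41.1, came from 1 Crebbp+/+ sample, the other 5 being at or below 7.87.

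Of 24 genes for collagen processing and matrix turnover, 18 of 20 on the array were tested and higher in MEFs. *Lox*, which cross-links collagen, was at 99.8, 99.7, 99.6 and 99.8 in MEFs and from 8.15 to 29.5 in FL HSCs. *Serpinh1* (HSP47), the collagen chaperone, was at 99.9 in MEFs and from 46.5 to 58.5 in FL HSCs. *Timp1*, a protease inhibitor, differed by -86.7 ± 1.19 points. The smallest difference was that of *P4ha1*, a proline hydroxylase, at -19.7 ± 1.61.

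Of 39 mesenchymal transcription factors, 38 were on the array and 27 were tested, of which 25 were higher in MEFs and 1 in FL HSCs. *Prrx2* and *Osr1*, of limb and body wall mesenchyme, ranked at or below 10.4 and 13.3 in FL HSCs and at or above 93.8 and 89.2 in MEFs. *Yap1*, a coactivator controlled by cell shape and contact, ranked from 26.5 to 48.0 in FL HSCs and at 95.4, 94.7, 94.6 and 94.7 in MEFs, and its DNA-binding partner *Tead1* from 21.1 to 40.9 and at 94.0, 95.5, 95.5 and 95.4. *Zeb2* ran against the list, with 88.8 to 91.5 in FL HSCs and 76.7, 76.3, 78.7 and 77.9 in MEFs (13.4 ± 0.779, adjusted p = 2.56e-08), although another *Zeb2* probe set was called in the opposite direction. Its relative *Zeb1* did not separate the cell types (92.6 to 95.8 against 95.2, 94.4, 93.8 and 93.8).

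Target genes of YAP and SRF were higher in MEFs in 11 of 13 tested, among them *Ccn2* (16.03 to 18.7 in FL HSCs, 99.2, 98.9, 98.6 and 98.9 in MEFs) and *Ccn1* (-64.1 ± 2.84 points). *Srf* itself differed by -1.7 ± 1.37 points (adjusted p = 0.263). Contractile and focal adhesion genes were higher in MEFs in 15 of 24 tested. The widest differences were those of *Tgfb1i1*, given above, and of the smooth muscle type genes *Myl9* (-86.5 ± 5.99), *Tagln* (-80.7 ± 6.51) and *Acta2* (12.0 to 29.2 in FL HSCs, at least 99.6 in MEFs). Genes of the shared cytoskeleton were at the top in both cell types, with *Vim* at 99.0 to 99.5 in FL HSCs and *Myh9* at 99.0 to 99.8 in FL HSCs and at 99.0, 99.4, 99.1 and 99.1 in MEFs. *Cav1*, the coat protein of caveolae, was at 98.3, 98.8, 98.7 and 98.9 in MEFs and from 4.16 to 34.5 in FL HSCs, and 12 of 15 tested genes of caveolae and junctions were higher in MEFs. The gap junction gene *Gja1* was high in both (93.0 to 96.7 in FL HSCs).

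**Figure D3:**
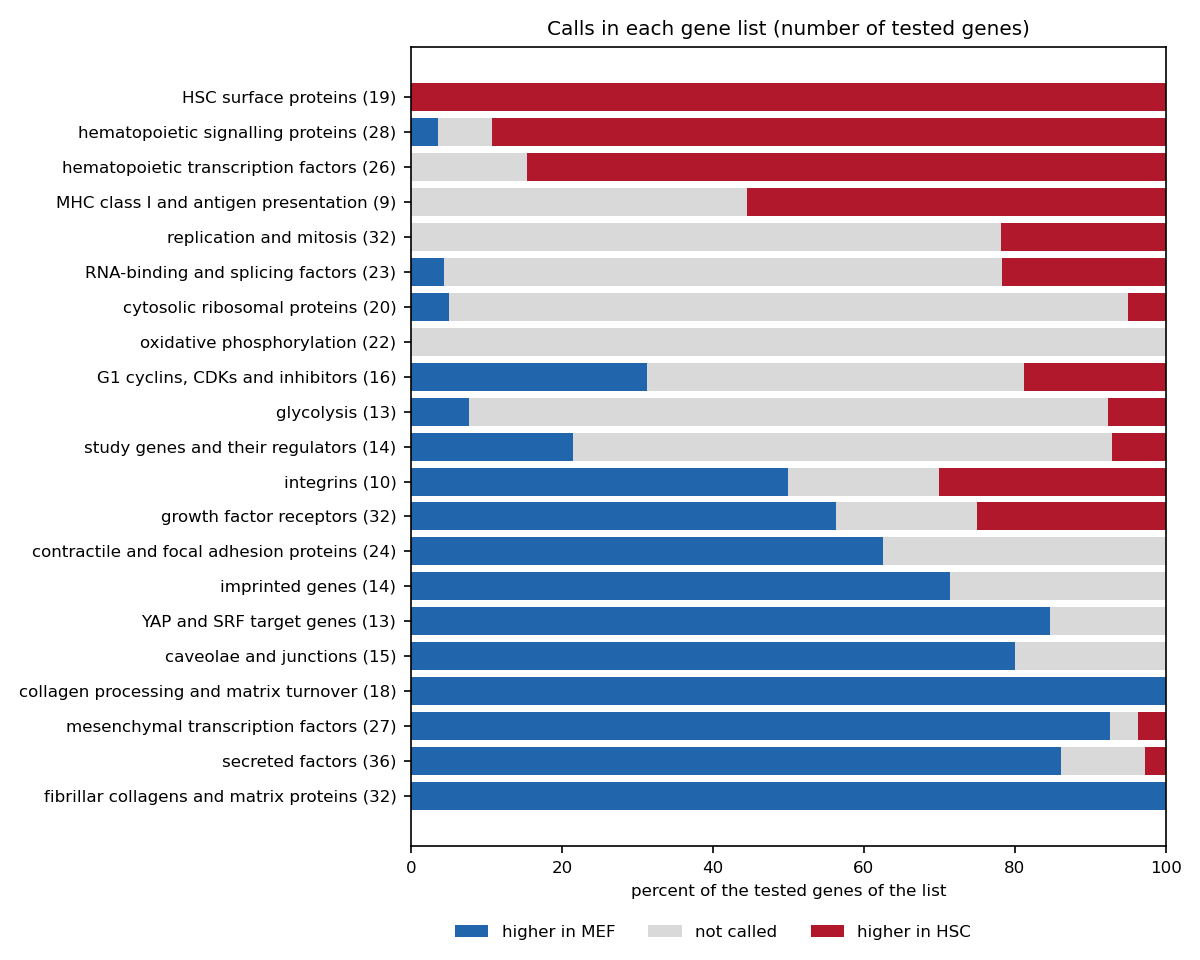
Percent of the tested genes of each list (number in brackets) that were called higher in WT MEFs (blue), not called (gray) or called higher in WT FL HSCs (red), for the 21 lists with at least 9 tested genes, in order of median difference. Among all 9220 tested genes 21.5% were called higher in MEFs and 24.7% higher in FL HSCs.

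Related genes often divided between the cell types. In 27 pairs a gene known from blood cells was set beside a relative of broader use, and in 24 pairs both were named on the array. In 9 pairs the first was higher in FL HSCs and the second higher in MEFs. *Fermt3*, the blood cell kindlin that activates integrins, ranked from 95.1 to 96.4 in FL HSCs and at 48.6, 50.4, 54.9 and 48.1 in MEFs, whereas *Fermt2* had a median of 29.0 in FL HSCs and a mean of 96.7 in MEFs. The WAVE complex subunits *Nckap1l* (medians and means 89.2 and 16.8) and *Nckap1* (47.3 and 97.7) split in the same way. So did the plastins *Lcp1* and *Pls3*, the cortactins *Hcls1* and *Cttn*, the class I myosins *Myo1f* and *Myo1e*, the SHIP phosphatases *Inpp5d* and *Inppl1*, *Stat5a* and *Stat3*, the integrin beta chains *Itgb2* and *Itgb5*, and the alpha chains *Itga4* and *Itga5*. For the *Stat5a* and *Stat3* pair, other probe sets of each gene were called in the opposite direction.

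In 7 pairs the blood gene was higher in FL HSCs while its relative was not called. *Rac1* ranked at a median of 97.3 in FL HSCs and a mean of 98.6 in MEFs, where *Rac2* was at 18.2, and *Ptpn11* at 94.4 and 94.3, where *Ptpn6* (SHP-1) was at 34.8 in MEFs. *Coro1a* and *Coro1c*, *Dock2* and *Dock1*, *Lmo2* and *Lmo4*, *Mef2c* and *Mef2a*, and *Fli1* and *Ets2* were the remaining pairs of this kind. Of the other *Coro1c* probe sets, 1 was higher in MEFs (-50.85 ± 5.74) and 1 higher in FL HSCs (37.3 ± 1.01). In 4 pairs both members were higher in FL HSCs, namely *Was* and *Wasl*, *Vav1* and *Vav2*, *Pik3cd* and *Pik3ca*, and *Plcg2* and *Plcg1*. Another probe set each of *Wasl* (-39.8 ± 3.65) and *Pik3cd* (-86.8 ± 1.5) was higher in MEFs. The D cyclins *Ccnd2* and *Ccnd1* and the splicing regulators *Ptbp3* and *Ptbp1* were not called. *Evl*, unlike most of the first members, had the higher rank in MEFs (a mean of 95.3 against a median of 87.0 in FL HSCs) and was not called, while *Enah* was higher in MEFs, and *Prkca* was higher in MEFs where *Prkcb* was not tested.

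**Figure D4:**
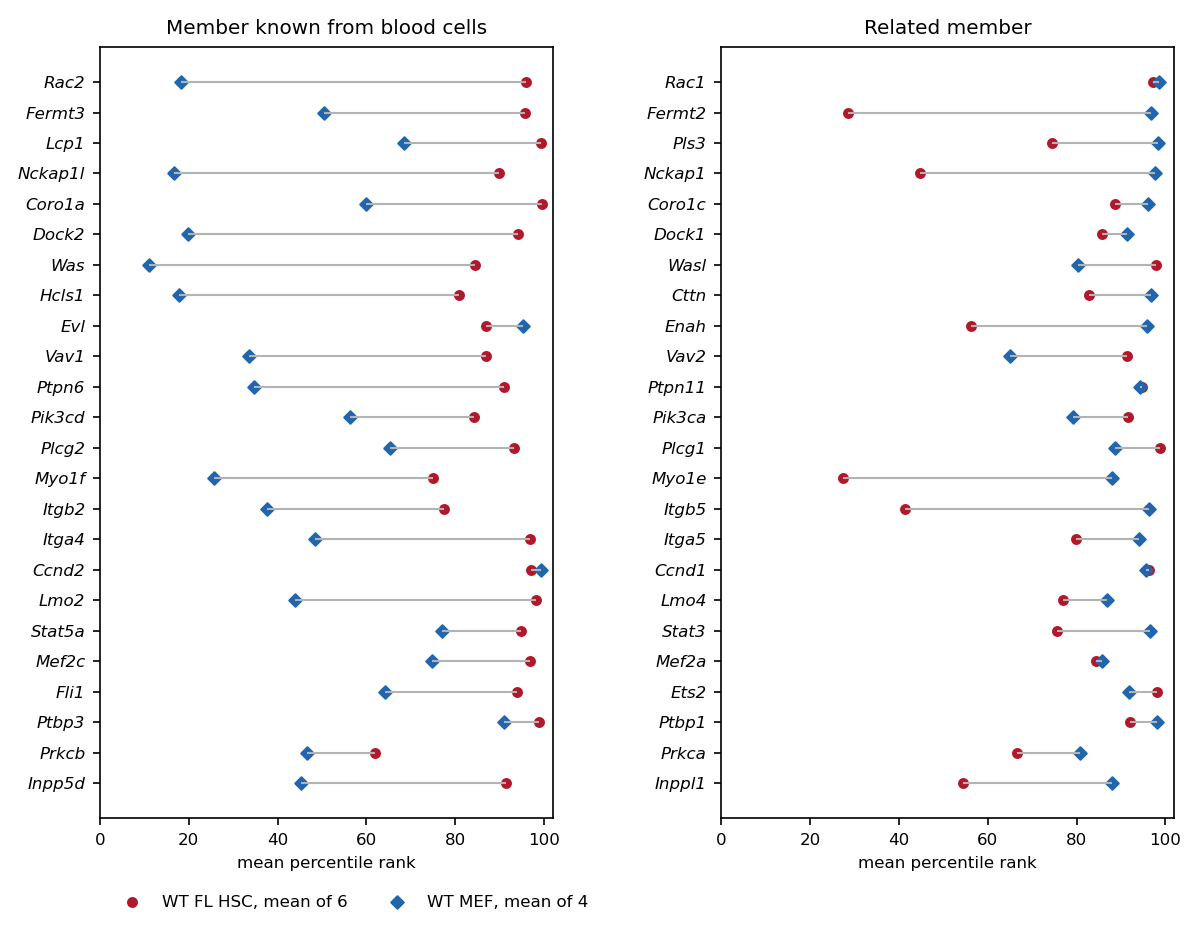
Mean percentile rank in 6 WT FL HSC samples (red circles) and 4 WT MEF samples (blue diamonds) of genes known from blood cells (left) and of a related gene each (right, same row), for 24 pairs, with a line joining the means of a gene. On the left, 20 genes were called higher in FL HSCs, and on the right 11 were called higher in MEFs, 4 higher in FL HSCs and 9 not called.

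Ligands and receptors of the same pathways did not always lie on the same side. *Kitl*, stem cell factor, ranked at 88.6, 79.1, 82.5 and 81.4 in MEFs and from 20.4 to 39.9 in FL HSCs. Its receptor *Kit* ranked the other way, but *Kit* was a gate of the sort, so the contrast of the pair is no finding. *Cxcl12*, the ligand of CXCR4, ranked at 99.2, 97.7, 97.6 and 98.6 in MEFs and from 17.9 to 26.4 in FL HSCs. *Angpt1*, the ligand of the receptor encoded by *Tek*, was in contrast higher in FL HSCs, as *Tek* was (83.1 to 90.7 against at most 40.3). *Angpt1* ranked from 91.4 to 94.9 in FL HSCs and at 85.4, 67.9, 66.7 and 67.1 in MEFs (21.5 ± 3.23, adjusted p = 7.82e-05). By representative probe sets *Angpt1* was the only one of 36 tested secreted factors called higher in FL HSCs, 31 being higher in MEFs. Another probe set of *Dlk1*, of the same list, was higher in FL HSCs by 60.1 points, while its representative one was higher in MEFs (-14.1).

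Among 32 tested growth factor and cytokine receptors, 18 were higher in MEFs and 8 in FL HSCs. The former included *Pdgfra* (25.6 to 51.5 in FL HSCs, 97.8, 96.6, 97.7 and 95.9 in MEFs) and the collagen receptor *Ddr2* (-68.9 ± 0.989). The latter included *Flt3*, *Il7r* (70.7 to 81.6 against at most 20.1), *Csf1r* (90.8 to 96.6 against 61.2, 61.0, 66.1 and 62.1) and *Notch1* (13.2 ± 1.53). Of 10 tested integrin chains, 5 were higher in MEFs and 3 in FL HSCs, with *Itgal* of the leukocyte integrin LFA-1 at 80.4 to 87.6 against at most 7.72, and *Itga8* at 16.4 to 35.8 against at least 81.5.

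Imprinted genes, many of which control fetal growth, were higher in MEFs in 10 of 14 tested and higher in FL HSCs in none by their representative probe set. *Mest* ranked at 99.8, 99.3, 99.5 and 99.5 in MEFs and from 66.6 to 75.9 in FL HSCs, and *Cdkn1c* (p57) at 98.9, 96.2, 98.0 and 95.6 and from 51.6 to 60.9. *Igf2*, fetal insulin-like growth factor, was at least at 99.8 in MEFs and from 80.1 to 91.5 in FL HSCs. *Dcn*, which is imprinted in placenta, also stands in the matrix list. *Gnas* and *Grb10* were above percentile 95 in all samples and were not called.

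Genes of the cell cycle separated less by rank, although many ranked high in both cell types, where ranks move little. Of 32 tested replication and mitosis genes, 7 were higher in FL HSCs and none in MEFs by their representative probe set, at 24.7% and 21.5% of all tested genes. By any probe set 12 genes had a call in FL HSCs and 3 in MEFs. The sample medians of this list were 90.2 to 93.1 in FL HSCs. They were 79.7 in the first MEF sample and 88.8, 87.3 and 86.9 in the others. *Chek1*, the replication checkpoint kinase, ranked from 91.1 to 94.9 and at 63.3, 64.2, 64.2 and 63.8. *Mki67*, a marker of cycling cells, ranked from 96.9 to 98.6 in FL HSCs and at 87.4, 91.3, 90.6 and 89.7 in MEFs, a difference of 7.81 ± 0.665 that was under the minimum. *Plk1* overlapped (74.9 to 82.3 against 76.4, 87.1, 83.5 and 84.3). Among 16 tested G1 cyclins, kinases and inhibitors, the 5 higher in MEFs were *Cdkn2b* (26.9 to 40.0 against 94.3, 94.2, 93.0 and 95.2), *Cdkn2c*, *Cdkn1c*, *Cdkn1a* and *Rbl2*, all of them inhibitors of the cycle. The 3 higher in FL HSCs were *Rbl1*, likewise an inhibitor, *E2f1* and *Cdk2*. Another *E2f1* probe set was higher in MEFs (-19.8 ± 1.13), against 15.4 ± 1.34 for the representative one.

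*Cdkn1a*, the gene deleted in another arm of the series, ranked from 59.7 to 68.2 with a median of 65.3 in FL HSCs and at 97.0, 97.2, 96.8 and 98.0 in MEFs (-32.6 ± 1.63, adjusted p = 7.22e-09). Its other probe set gave -39.9 ± 3.97. *Crebbp* had 3 tested probe sets, and they disagreed. The brightest ranked from 97.0 to 98.5 in FL HSCs and at 92.5, 91.7, 92.4 and 91.7 in MEFs and was not called, a second was higher in FL HSCs (17.4 ± 1.15), and the last was higher in MEFs (-13.1 ± 2.91). *Ep300* ranked from 88.0 to 90.2 against 84.3, 83.5, 84.0 and 83.3, without overlap and without reaching the minimum difference (5.55 ± 0.602). Among 14 tested histone acetyltransferases, deacetylases and other regulators linked to these genes, *Kat5* (Tip60) was higher in FL HSCs, and *Hdac5*, *Cdkn1a* and the nuclear noncoding RNA *Neat1* were higher in MEFs.

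Such disagreement was not rare. Of 3975 genes with several tested probe sets, 353 (8.88%) had probe sets called in both directions. They included the RNA-binding proteins *Celf1*, *Igf2bp1*, *Igf2bp3*, *Qk* and *Sf3b1*. By representative probe sets, 5 of 23 tested RNA-binding and splicing factors were higher in FL HSCs and 1 in MEFs, whereas by any probe set of the gene 15 and 9 genes had a call. *Esrp2*, a splicing regulator of epithelial cells, ranked from 94.0 to 95.8 in FL HSCs and at 33.3, 32.7, 31.8 and 33.2 in MEFs. *Celf2* ranked from 99.2 to 99.5 and at 83.2, 86.4, 87.6 and 87.4. *Rbfox2*, a regulator of mesenchymal exons, was higher in MEFs (-28.8 ± 2.73).

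The study lists 83 probe sets within introns that changed in Crebbp+/- FL HSCs, and these were followed here in the WT samples. The list was chosen on the Crebbp experiment, whose WT samples are part of this comparison, so that signal in FL HSCs is built into it, and no support is drawn from its counts. Of 79 tested, 76 were higher in FL HSCs, beside 26.7% of all tested probe sets, and none was higher in MEFs. Their median rank was 78.5 in FL HSCs and 50.6 in MEFs. In the Ep300+/+ and Cdkn1a+/+ samples, which did not serve to choose them, the median was 76.4. In all 4 of these samples, 78 of the 83 ranked higher than in any MEF sample. Such separation was common, since 7130 of 17361 tested probe sets ranked higher in every FL HSC sample compared than in any MEF sample. The share of all tested probe sets over the 4 samples alone was not counted, so the 78 is no independent support.

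Other probe sets of the host genes are given beside them as a description, since the intronic ones were chosen for signal in FL HSCs and the others are mostly bright in both cell types, where ranks move little. For 69 host genes another probe set named the gene. By the brightest of these 24 were higher in FL HSCs, 2 were higher in MEFs, 41 were not called and 2 were not tested. The median difference was 6.38 points for these probe sets and 29.4 for the intronic ones of the same genes. An intronic *Meis1* probe set ranked from 78.6 to 81.6 in FL HSCs and at a mean of 4.35 in MEFs, although the brightest other *Meis1* probe set ranked lower in FL HSCs than in MEFs (means of 77.3 and 86.9). *Msi2*, an RNA-binding protein of HSCs, had an intronic probe set at 72.7 to 85.8 in FL HSCs and a mean of 1.34 in MEFs, while its brightest other probe set was at means of 94.9 and 85.6. *Dock2* was higher in FL HSCs by both kinds. If the FL HSC RNA alone was amplified, as the methods but not the labels have it, the part of amplification in the intronic signal cannot be told apart from that of the cell type.

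**Figure D5:**
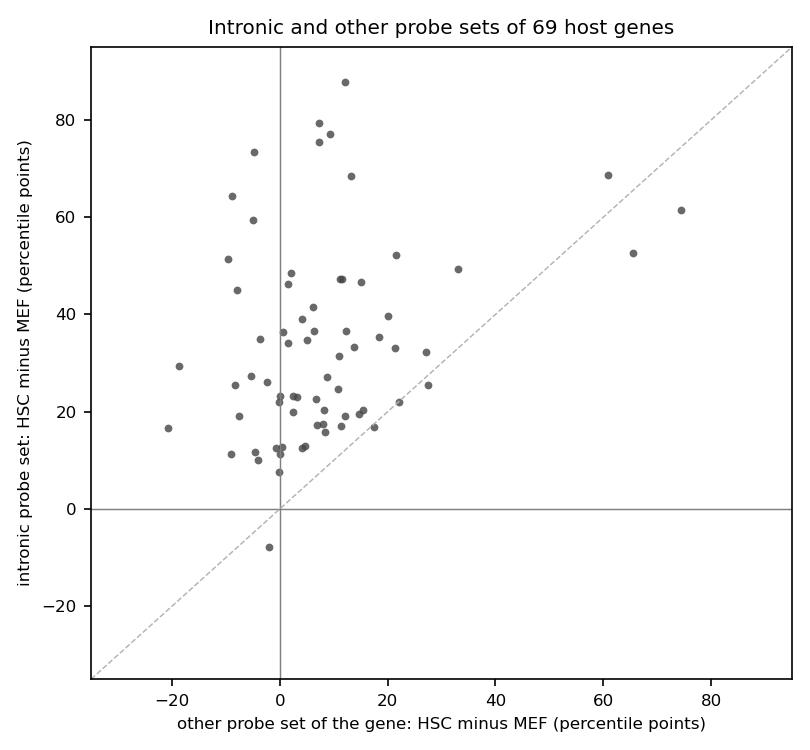
Difference in mean percentile rank, WT FL HSCs minus WT MEFs, of the intronic probe set (vertical axis) against that of the brightest other probe set of the same gene (horizontal axis), for 69 host genes of intronic probe sets listed by the study. The dashed line marks equal differences, and the median is 29.4 points for the intronic and 6.38 for the other probe sets.

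Genes used by all cells showed few differences. Of 22 tested genes of oxidative phosphorylation none was called. Of 20 tested cytosolic ribosomal protein genes 18 were not called, the exceptions being *Rpl14*, higher in FL HSCs, and *Rpl37*, higher in MEFs (39.3 to 62.4 against 96.2, 96.4, 96.1 and 95.5). Both belong to families with many near-identical pseudogenes, and the *Rpl37* probe set is of a type that can cross-hybridize. By any probe set, 4 ribosomal protein genes had a call in FL HSCs and 1 in MEFs. In glycolysis, 11 of 13 tested genes were not called, while the hexokinases divided, *Hk2* being higher in FL HSCs (16.5 ± 0.785) and *Hk1* in MEFs (-14.3 ± 2.16). Of 9 tested genes of class I antigen presentation, 5 were higher in FL HSCs, including the immunoproteasome subunits *Psmb9* (77.4 to 89.2 against at most 17.9) and *Psmb8* and their activator *Nlrc5*, while *B2m* and *H2-K1* overlapped between the cell types.

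Markers of other cells were examined in both groups. In FL HSCs, 4 of 11 granulocyte genes were tested and higher than in MEFs, namely *Mpo*, *Prtn3*, *Ctsg* and *Ms4a3*, genes of early granule formation that progenitors also express. The median of the 11 ranged from 50.5 to 59.9 in 5 FL HSC samples and was 85.3 in the second Cdkn1a+/+ sample, where the late granulocyte genes *S100a8* and *S100a9* ranked at 88.3 and 86.9 against at most 61.5 and 49.5 in the other 5. Without that sample 4683 probe sets were higher in FL HSCs and 4627 in MEFs. The lymphoid genes *Cd79b*, *Il7r* and *Ighm* were higher in FL HSCs, *Ebf1*, a regulator of B cells, was higher in MEFs (60.6 to 80.6 against 84.9, 82.8, 86.3 and 82.8), and *Vpreb1*, of B cell precursors, was at 91.3 in 1 sample and had a median of 58.5. Among 12 endothelial markers *Tie1*, *Esam*, *Robo4*, *Emcn* and *Ramp2* were higher in FL HSCs, some of which HSCs share. *Flt1* was higher in MEFs (42.0 to 55.5 in FL HSCs, 56.9, 76.7, 76.1 and 72.4 in MEFs), while the endothelial receptor *Kdr* ranked at most at 17.1 and *Cdh5* at most at 47.4.

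None of the 9 erythroid or 10 hepatocyte markers on the array reached the level for testing. The sample medians of the hepatocyte list were 45.0 to 54.8 in FL HSCs and 24.8 to 25.9 in MEFs. The second Crebbp+/+ sample had the highest of these medians. It was the highest FL HSC sample compared for *Afp* (86.5), *Alb* (77.8), *Apoa1* (79.0), *Apoa2* (73.4) and *Rbp4* (60.8). For *Ttr*, *Ahsg*, *Fgb*, *Fgg* and *Apob* it was not the highest. Of 8 megakaryocyte markers, *Gp9* and *Selp* were tested and higher in FL HSCs. The part of other cells in the sorted samples was not tested.

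The MEF samples held genes of further embryonic tissues. *Col2a1*, of cartilage, ranked at 99.1, 94.5, 91.2 and 97.3, against at most 10.4 in FL HSCs, and *Col9a1* at 89.1 in the first MEF sample and at 61.4, 59.3 and 62.8 in the others. *Sox9*, a cartilage regulator, was higher in MEFs as well, as were *Des* and *Acta1* of muscle, although *Tnnt1*, a troponin of slow muscle, was higher in FL HSCs (73.9 to 78.6 against 41.7, 25.6, 25.6 and 25.7). *Myod1* and *Myog*, regulators of muscle, ranked at most at 1.03 and 31.3 in MEFs. Complement genes of macrophages varied between MEF samples, with *C1qa* at 57.6, 60.3, 75.01 and 65.8 and *C1qc* at 1.31, 7.31, 55.4 and 38.8, against at most 5.79 and 2.12 in FL HSCs. Litter, embryo and culture cannot be told apart in this variation. The third MEF sample, highest for both, was also the one with *Ptprc* at 19.3. The median of the 11 macrophage markers was 57.6, 59.2, 66.1 and 62.1 in MEFs and 21.6 to 38.7 in FL HSCs. Of the 3 tested, *Csf1r* and *Cd68* (70.4 to 73.8 in FL HSCs, 58.7, 59.2, 64.9 and 62.1 in MEFs) were higher in FL HSCs and none was higher in MEFs.

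*Xist*, the RNA of the inactive X chromosome, ranked from 87.5 to 96.2 in FL HSCs and at 39.0, 39.4, 39.8 and 39.5 in MEFs. The Y-linked *Uty* ranked at 73.7, 70.6, 72.6 and 72.3 in MEFs and from 42.4 to 53.9 in FL HSCs, whereas *Eif2s3y* and *Kdm5d* were not called. Each FL HSC sample pooled 15 embryos and each MEF sample came from 1, and a difference between the sexes cannot be told apart from one between the cell types for sex-linked genes.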

How the data were processed

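Probe set values of 31 Affymetrix mouse whole-genome arrays were deposited by the authors as log2 values computed with GCRMA, whose background model uses the bases of each probe, in 4 separate groups. All 31 value columns were matched to samples. Array control probe sets were removed, leaving 45037, technical arrays of 1 sample were averaged, and values were converted to percentile ranks within each sample. FL HSC and MEF samples were compared with limma 3.58.1 in R 4.3.3 (eBayes with a trend, 8 residual degrees of freedom) after a filter at a mean rank of percentile 70 in either cell type. The precision is limited by 6 FL HSC and 4 MEF samples, and further by the correlation of samples within an experiment, which the main fit does not model. FL HSC samples were separate pools and MEF samples separate litters. The script was tested on simulated data with known changes. Ranks were tabulated in Python 3.11.15 with pandas 2.3.3.

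Gene names came from the platform annotation, in which 34945 probe sets name 1 gene, 932 several and 9160 none, and probe sets with several or none were not named. A gene was represented by its probe set with the highest average of both cell types' mean ranks, avoiding IDs that end in _x_at where another existed. Named genes were the 5 markers, the 12 widest gaps in each direction, the members of each list with the largest differences or called against most of the list, the related pairs, and *Crebbp*, *Ep300* and *Cdkn1a*. Genes named for a small or absent difference, and those of other cell types, were chosen after their values were seen. The members and lists were chosen with earlier results of these data known. The methods describe MEF RNA as unamplified, whereas the sample labels give the amplification protocol for all samples.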

Additional observations from a re-analysis of the deposited data

Results flagged for a closer look

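Some values lay far from the other samples of their group by Dixon's test, which flags about 1 group in 20 by chance. Of 717 groups checked, 45 were past the critical value, which is not far from that rate, and only some are named here. The FL HSC groups mix samples of different experiments, which the test takes as 1 population. In MEFs, *Angpt1* ranked at 85.4 in the first sample, with the next at 67.9, *Mbnl3* at 87.5 in the first sample with the next at 78.1, *Ccl7* at 71.7 in the first sample with the next at 85.4, and *Fbln2* at 98.7 in the first sample with the next at 99.4. The *Fbln2* values spanned only 98.7 to 99.5. *Acta1* ranked at 74.5 in the third MEF sample, with the next at 87.0. In FL HSCs, the second Crebbp+/+ sample was lowest for *Coro1c*, at 76.95 with the next at 88.3, and for *Igf1r*, at 83.5 with the next at 91.4. The second Cdkn1a+/+ sample was lowest for *Cav2*, at 70.2 with the next at 78.8, and for *Gp9*, at 64.6 with the next at 72.9.

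The third Cdkn1a+/+ FL HSC sample, left out of the comparison, held *Alb* at 99.2, *Slc4a1* at 89.4 and the macrophage gene *C1qb* at 72.4, against at most 77.8, 39.9 and 8.63 in the other FL HSC samples. With it as a further FL HSC sample 4527 probe sets were higher in FL HSCs and 4503 in MEFs.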

How the results depend on the processing

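The number of probe sets higher in FL HSCs, 4632 as reported, was 7116 with normal scores of the ranks and no minimum difference, 7019 with median-centred log2 values and a 2-fold minimum (against 4761 higher in MEFs, so that 59.6% of calls were higher in FL HSCs and not 50.2%), 10191 with no filter, 6982 with a filter at an intensity of 100 in any sample, 3008 with a filter at percentile 80, 2416 with a minimum difference of 20 points and 2276 with 1 probe set a gene. The number higher in MEFs, 4594 as reported, was 10338 with no filter, 2762 with a minimum difference of 20 points and 1986 with 1 probe set a gene. Fewer probe sets tested, or a larger minimum, lower these counts by construction, and the cause of the other shifts was not tested. Leaving out 1 sample at a time gave 4595 to 4710 and 4540 to 4653. Of 330 called genes of the lists and pairs, none turned its direction under any alternative run, while 59 lost their call at a minimum of 20 points, 288 kept it with the filter at percentile 80 and 11 lost it with the Cdkn1a+/+ FL HSC samples alone. Among the tested genes of the lists and pairs that were not called, 107 gained a call with normal scores and 59 did not. After quantile normalization of all samples together 67 gained a call and 99 did not. *Crebbp* and *Ep300*, not called on ranks, were called higher in FL HSCs with normal scores, with median-centred log2 values and with a minimum of 5 points, and *Crebbp* also after quantile normalization of all samples together.

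Sample numbers did not pair the FL HSC and MEF samples, since the deviations of samples with the same number correlated by 0.065 and 0.071. With the sample number as a replicate block 4620 probe sets were higher in FL HSCs and 4544 in MEFs. GCRMA sets no depth, and differences between ranks below the percentile of intensity 100 could not be resolved.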
